A study of Mus musculus with 2 samples.

Results

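The nuclear receptors for lipids, retinoids and steroids were examined here through 10 genes, taken as the rows of their symbols in both libraries and picked with earlier results of these data known. They comprised 9 receptors, namely the retinoic acid receptors Rara and Rarg, the retinoid X receptors Rxra and Rxrb, the liver X receptors Nr1h2 and Nr1h3, the fatty acid receptor Ppard, the vitamin D receptor Vdr and the glucocorticoid receptor Nr3c1, together with Dhrs3, an enzyme of retinoid metabolism. All 10 symbols were found in both libraries, among 24346 symbols in all. The study compared splenic and lung Tregs of Foxp3-DTR-GFP (FDG) mice, aged 10 to 16 weeks, in which GFP is made from the endogenous Foxp3 locus. The mice had received 50 μg of bleomycin (BLM) through the trachea, and GFP+CD4+ cells were taken on day 15. Cells of 3 mice were pooled for each tissue, so that there was 1 spleen library and 1 lung library, both from BLM-treated animals, and untreated mice and GFP-negative cells were not analysed here. The differences between the tissues therefore rest on a pair of libraries without replicates, and none was tested.

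Nuclear receptors are transcription factors that are switched by small lipid-soluble ligands. Most of those described here bind DNA together with RXR, and the glucocorticoid receptor moves to the nucleus when its hormone releases it from chaperones. Retinoic acid is made from vitamin A by the enzymes that convert retinol to retinal and retinal to the acid, and in T cells it is known for supporting Foxp3 expression and gut homing. Dhrs3 works in the opposite direction, reducing retinal back to retinol, and its gene is itself known to be induced by retinoic acid.

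Expression was given as FPKM, the fragments of a gene per kilobase of exon, scaled to the mapped fragments of the library, so that genes can be ordered within a library. The number of reads behind each FPKM was estimated from transcript lengths, and intervals are 95% exact intervals for those reads (Poisson for a level, Clopper-Pearson binomial for a ratio). They cover counting error only, since PCR copies cannot be told from separate molecules, nor the mice from each other. For genes with several transcripts the intervals use the shortest transcript, which gives the fewest reads. The ratio of lung to spleen was taken after values under 0.1 FPKM were set to 0.1, and a gene is counted as higher or lower when this ratio passed 2-fold and the gene reached 1 FPKM in either library. For genes with only 1 to 3 reads in a library the ratio is printed without this floor, with its interval.

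Of the 10 genes, 9 reached 1 FPKM. In lung Tregs 2 of them were over 2-fold higher, Vdr and Dhrs3, and 2 were over 2-fold lower, Rara and Rarg, while Rxra, Rxrb, Nr1h2, Nr1h3 and Nr3c1 stayed within 2-fold. Among all 12094 genes at that level, 17.8% were over 2-fold higher and 15.5% were over 2-fold lower in lung, so that the counts for these genes are close to the background. Taking the 10 genes together, their log2 ratios had a median of 0.19, or 0.32 for the 9 that reached 1 FPKM, against 0.03 for all genes at that level. The description below follows each receptor family in turn.

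**Figure D1:**
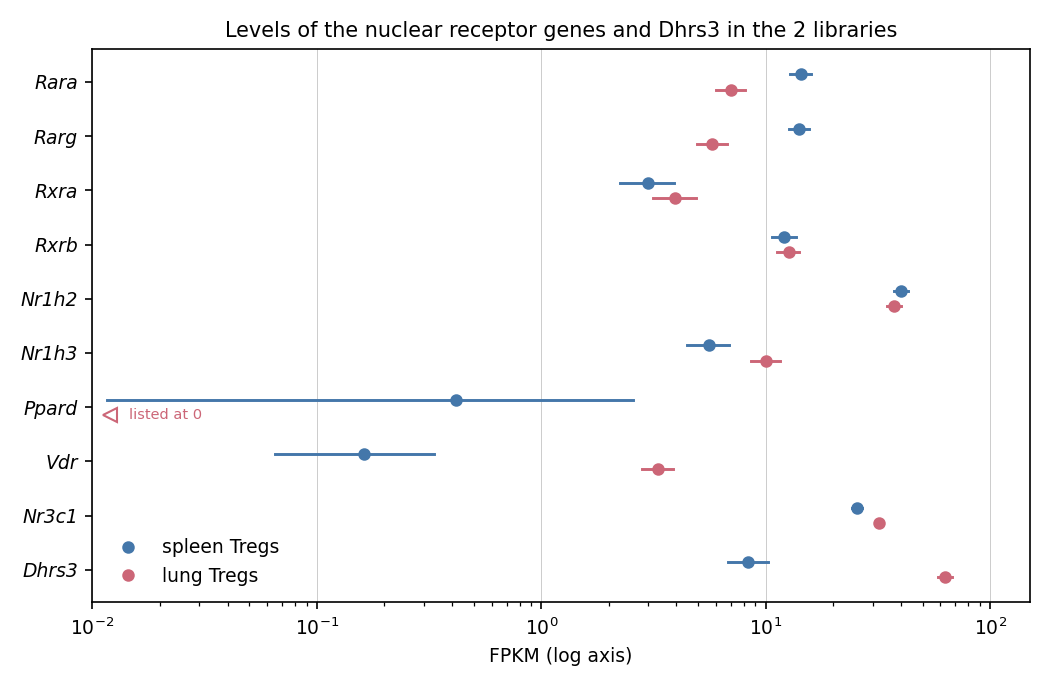
FPKM (log axis) of the 10 genes in the spleen library (blue) and the lung library (red), with bars for the 95% counting interval of the estimated reads on the shortest transcript. Dhrs3 and Vdr lie to the right in lung, Rara and Rarg to the left, and Ppard was listed at 0 in lung.

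The promoters of the 4 genes that passed 2-fold are shown because their RNA differed most between the tissues. The table of RefSeq start sites used here (GRCm38.p6) matched 9 of the 10 genes, all but Nr3c1, with 18 start sites in all, and the 250 bases before each were read. The sequences of 4 windows follow, 5′ to 3′ on the strand of the gene, without bases that GENCODE M21 places in an exon. Capitals mark the hexamer AGGTCA together with AGTTCA, with GGGTCA and with GGTTCA, on either strand, to which most nuclear receptors bind as repeats. The Dhrs3 sequence is chr4:144892577-144892826 (plus strand), the Vdr sequence is chr15:97908311-97908546 (minus strand), the Rara sequence is chr11:98939461-98939710 (plus strand) and the Rarg sequence is chr15:102257523-102257772 (minus strand). The Dhrs3 and Rarg sequences lie before the first annotated exon of their genes, and those of Vdr and Rara lie inside the gene, before an internal start.
Dhrs3: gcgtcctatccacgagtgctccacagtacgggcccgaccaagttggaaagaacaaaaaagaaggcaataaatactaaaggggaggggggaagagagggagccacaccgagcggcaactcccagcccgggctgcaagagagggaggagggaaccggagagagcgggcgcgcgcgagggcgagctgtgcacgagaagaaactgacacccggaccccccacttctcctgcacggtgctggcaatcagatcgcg
Vdr: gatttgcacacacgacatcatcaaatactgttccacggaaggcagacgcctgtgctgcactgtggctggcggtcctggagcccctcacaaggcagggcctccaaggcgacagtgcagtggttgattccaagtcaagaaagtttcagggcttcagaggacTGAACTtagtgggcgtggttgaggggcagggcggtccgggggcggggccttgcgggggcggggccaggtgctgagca
Rara: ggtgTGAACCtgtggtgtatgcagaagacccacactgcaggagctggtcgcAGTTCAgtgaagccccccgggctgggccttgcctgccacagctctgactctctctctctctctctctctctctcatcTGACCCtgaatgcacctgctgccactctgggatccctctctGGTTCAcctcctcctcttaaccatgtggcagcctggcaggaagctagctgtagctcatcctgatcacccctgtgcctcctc
Rarg: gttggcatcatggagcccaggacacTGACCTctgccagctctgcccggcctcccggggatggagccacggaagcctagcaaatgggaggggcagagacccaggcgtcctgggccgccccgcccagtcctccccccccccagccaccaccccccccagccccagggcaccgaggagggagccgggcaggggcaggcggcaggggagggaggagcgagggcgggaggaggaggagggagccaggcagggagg

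Of these, the Dhrs3 sequence held no such hexamer, the Vdr sequence held 1, at 91 bases before the start, and the Rarg sequence held 1, at 225 bases before the start. The Rara sequence, from the third of its 4 start sites along the gene, held 4 hexamers, at 246, 199, 122 and 81 bases before the start. The windows of Dhrs3, Rara and Rarg that are not printed held none. Over all 18 windows, 4 held a hexamer, in 4 of the 9 genes with a window. Of the 32841 windows of the same length in the whole table, 38.6% did. Some windows of Dhrs3, Rara and Nr1h3 overlap each other, so the 18 are not separate units. A direct repeat of the hexamer with a spacer of 1 to 5 bases was found in 0 of the 18 windows and in 0.524% of all windows. The hexamer AGAACA, on either strand, which is part of the element of the glucocorticoid receptor, occurred in 1 of the 18 windows, that of the first Dhrs3 start site, and in 16.1% of all windows. A match of letters is not a site of binding, and no binding was measured.

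Both retinoic acid receptors were lower in lung Tregs. RARs are the receptors of all-trans retinoic acid. Rara, on chromosome 11 of GRCm38 from 98927818 to 98974942 (plus strand), was at 14.3 FPKM in spleen (interval 12.8 to 15.95) and at 6.99 FPKM in lung (6.02 to 8.07). It was thus 2.05-fold lower in lung, with a counting interval of 1.71 to 2.47. Rarg, on chromosome 15 from 102234938 to 102257517 (minus strand), was at 14.1 FPKM in spleen (12.7 to 15.6) and at 5.75 FPKM in lung (4.92 to 6.69). It was 2.44-fold lower, with an interval of 2.03 to 2.95. The levels of Rara and Rarg could not be told apart by counting error within either library. Rara came to just under 2-fold lower when 1 FPKM was added to both values, which, apart from a threshold of 4-fold, was the only setting tried in which either gene was not over 2-fold lower. Rarb, the third receptor of the family and a classical target of retinoic acid, was at 0.583 FPKM in spleen and 0.0296 FPKM in lung, about 17.5 and 1.01 reads.

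RXRs are the shared partners of RARs, LXRs, PPARs and the vitamin D receptor. Rxrb, on chromosome 17 from 34031812 to 34038399 (plus strand), was the main RXR gene, at 12.1 FPKM in spleen (10.7 to 13.6) and 12.6 FPKM in lung (11.2 to 14.1), a ratio of 1.04 with an interval of 0.882 to 1.24. Rxra, on chromosome 2 from 27676440 to 27762957 (plus strand), was at 2.98 FPKM in spleen (2.24 to 3.90) and 3.95 FPKM in lung (3.13 to 4.90), a ratio of 1.32 with an interval of 0.925 to 1.90. The counting intervals of the 2 libraries overlapped for both genes. Rxrg was at 0.591 FPKM in spleen and was listed at 0 in lung.

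The sum of the RAR genes was 29.0 FPKM in spleen against 12.8 FPKM in lung, whereas that of the RXR genes was 15.7 and 16.6 FPKM. RAR transcripts therefore stood at 1.85 times those of RXR in the spleen library and at 0.770 times in the lung library, a ratio within each library that no scaling between them can alter. Within the RAR sum, Rara held 49.5% in spleen and 54.7% in lung, and within the RXR sum, Rxrb held 77.2% and 76.2%. The split between the 2 genes of each family was thus much the same in both tissues, while the total of RAR was lower in lung.

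**Figure D2:**
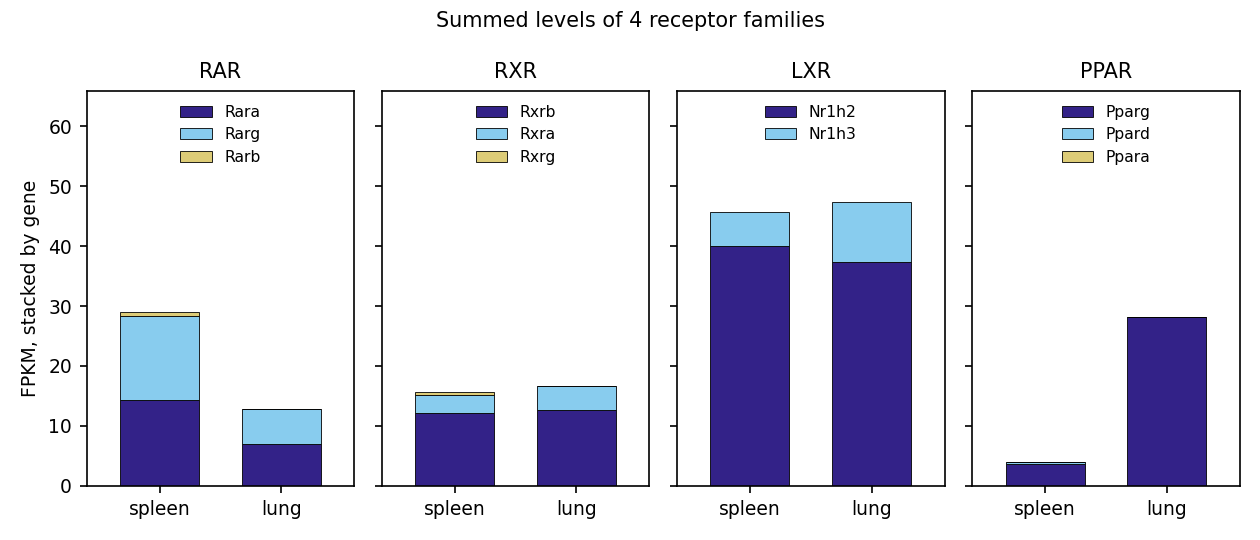
FPKM of the RAR, RXR, LXR and PPAR genes, stacked by gene, in the spleen and lung libraries. The RAR bar is at 29.0 FPKM in spleen and 12.8 FPKM in lung, the RXR and LXR bars are nearly equal, and the PPAR bar is at 4.01 and 28.2 FPKM, mostly Pparg.

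Dhrs3, which lowers the supply of retinal for retinoic acid, differed in the opposite direction. The gene lies on chromosome 4 from 144892827 to 144928209 (plus strand). It was at 8.36 FPKM in spleen (6.80 to 10.2) and at 62.9 FPKM in lung (58.8 to 67.3), from 99 to 185 estimated reads in spleen and 845 to 1577 in lung for its shortest and longest transcripts. Dhrs3 was 7.53-fold higher in lung, with an interval of 6.10 to 9.35. Among the genes at 1 FPKM or more, 7.12% had a higher ratio. It ranked 7042 among 14804 detected genes in spleen and 1848 among 13708 in lung, and it was the highest of the 10 genes in lung but the sixth in spleen.

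The genes that carry and convert retinoids were examined through a list of 22 others, of which 11 reached 1 FPKM. Of these, 8 were over 2-fold higher and 1 was over 2-fold lower in lung, with a median log2 ratio of 1.22, against the 17.8% and 15.5% of all genes. The most abundant was Fabp5, a fatty acid binding protein that can also carry retinoic acid, at 22.5 FPKM in spleen and 415 FPKM in lung, or 18.5-fold higher. Rdh11, a retinal reductase, was at 15.4 and 37.4 FPKM, or 2.43-fold higher. Dhrs9, a retinol dehydrogenase, was at 0.296 and 2.57 FPKM, or 8.70-fold higher. Aldh1a1, which makes retinoic acid from retinal, was listed at 0 in spleen and at 1.72 FPKM in lung. Bco2, which cleaves carotenoids, Rdh12 and the retinol dehydrogenase Rdh10 were 2.33, 2.18 and 2.05-fold higher. Some genes of both the making and the removal of retinal were thus higher in the lung library. Rdh5 (3.67 and 2.75 FPKM) and Adh1 (4.03 and 3.24 FPKM) were not, and stayed within 2-fold. Stra6, the cell surface receptor for retinol binding protein, was at 1.62 FPKM in spleen and 0.0319 FPKM in lung, on about 1.02 reads, which is 50.8-fold lower with an interval of 8.92 to 2107. The enzymes that degrade retinoic acid, Cyp26a1, Cyp26b1 and Cyp26c1, were at 0.0715 FPKM or less in both libraries.

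Genes known to respond to retinoic acid did not differ in a shared direction. Of 12 listed, 5 reached 1 FPKM, with a median log2 ratio of 0.009. Of the 5, 1 was over 2-fold higher and 1 over 2-fold lower, close to the 17.8% and 15.5% of all genes. Tgm2, a transglutaminase, was at 4.45 FPKM in spleen and 22.4 FPKM in lung, or 5.04-fold higher, and the lower gene was Stra6. The integrin genes Itgb7 (444 and 443 FPKM) and Itga4 (27.3 and 32.9 FPKM) and the gut homing receptor Ccr9 (4.67 and 4.70 FPKM) were nearly equal in the 2 libraries.

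Vdr, the receptor of active vitamin D, had the highest ratio of the 10 genes. It lies on chromosome 15 from 97854425 to 97910630 (minus strand). Vdr was at 0.163 FPKM in spleen (0.0652 to 0.334), about 7 reads, and at 3.30 FPKM in lung (2.82 to 3.86), about 162 reads. It was 20.3-fold higher in lung, with an interval of 9.67 to 51.5, and 3.19% of the genes at 1 FPKM or more had a higher ratio. The size of the ratio rests on the low spleen value, and with values under 1 FPKM set to 1 it was 3.30-fold. Even in lung, Vdr was lower than all of the other genes but Ppard, and its counting interval overlapped that of Rxra. Of 10 genes that transport, activate or respond to vitamin D, 3 reached 1 FPKM. Gc, the vitamin D binding protein of serum, was listed at 0 in spleen and at 2.49 FPKM in lung, Cyp27a1, a sterol hydroxylase, was at 2.29 and 0.505 FPKM, or 4.54-fold lower, and Cyp2r1, which hydroxylates vitamin D, was at 1.02 and 0.652 FPKM. Cyp24a1, the most familiar target of Vdr, was listed at 0 in both libraries.

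The liver X receptors respond to oxysterols and control cholesterol export. Nr1h2, on chromosome 7 from 44549616 to 44553951 (minus strand), was the highest of the 10 genes in spleen, at 40.1 FPKM (37.3 to 43.1), and was at 37.4 FPKM in lung (34.8 to 40.1), a ratio of 0.932 with an interval of 0.842 to 1.03. Nr1h3, on chromosome 2 from 91184061 to 91202834 (minus strand), is known as the form enriched in macrophages and liver. It was at 5.57 FPKM in spleen (4.45 to 6.84) and 10.02 FPKM in lung (8.59 to 11.6), or 1.80-fold higher with an interval of 1.39 to 2.35, within the 2-fold used for a call. Nr1h2 stood at 7.20 times Nr1h3 in spleen and at 3.73 times in lung. The exons of Nr1h3 share 34 nt, or 1.35% of their length, with Gm13783 on the same strand, and no other gene of the 10 overlaps an annotated exon of another gene.

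Of 13 genes known as targets of LXR, 11 reached 1 FPKM, with 4 over 2-fold higher and 0 lower in lung and a median log2 ratio of 0.80, beside 17.8% higher and 15.5% lower among all genes. With a threshold of 1.5-fold, 7 of the 11 were higher and 1 was lower, beside 27.4% and 25.4% of all genes. Lpcat3 (17.7 and 35.4 FPKM) was 1.997-fold higher, just within 2-fold. Lpl, Pltp and Apoe had the highest ratios of the list. Lpl, lipoprotein lipase, was at 2.46 FPKM in spleen and 123 FPKM in lung, or 50.02-fold higher. Apoe, the apolipoprotein of cholesterol efflux, was at 203 and 2142 FPKM, or 10.6-fold higher. Pltp, the phospholipid transfer protein, was at 3.68 and 54.3 FPKM, or 14.8-fold higher. The sterol exporter Abca1 was at 1.41 and 3.38 FPKM, or 2.40-fold higher. Srebf1 (18.1 and 17.1 FPKM) and Mylip (10.6 and 10.3 FPKM), regulators of lipid synthesis and of LDL receptor turnover that LXR also induces, were nearly equal. Of 6 genes that make or use oxysterols, Hsd3b7 was over 2-fold higher in lung (2.39 and 25.9 FPKM), Cyp27a1 was lower as given above, and no other reached 1 FPKM.

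Ppard, the widely expressed PPAR, lies on chromosome 17 from 28232700 to 28301474 (plus strand). It was at 0.417 FPKM in spleen and was listed at 0 in lung. The spleen value corresponds to about 13 reads on the coding transcript of 3277 nt but to about 1 read on a noncoding transcript of 417 nt, so that its interval, 0.0116 to 2.56 FPKM on the latter, is wide. A count of 0 in lung allows up to 1.49 FPKM on the short transcript by the same interval, and 3 reads on the coding transcript would be 0.083 FPKM. The PPAR transcripts of both libraries came mainly from Pparg, the regulator of fat storage and of alveolar macrophages, which was at 3.57 FPKM in spleen and 28.2 FPKM in lung, or 7.91-fold higher with an interval of 6.03 to 10.47. Ppara was at 0.0276 FPKM in spleen and listed at 0 in lung.

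Of 16 genes known to respond to PPARs, 14 reached 1 FPKM, with 4 over 2-fold higher and 0 lower in lung and a median log2 ratio of 0.24, beside the same 17.8% and 15.5% of all genes. The 4 were genes of lipid uptake and storage. Fabp4, a fatty acid carrier, was at 0.446 FPKM in spleen, about 3.18 reads, and at 58.3 FPKM in lung, a ratio of 131 with an interval of 47.1 to 674. Plin2, the coat protein of lipid droplets, was at 11.9 and 176 FPKM, or 14.8-fold higher. Cd36, a scavenger receptor, was at 3.17 and 46.5 FPKM, or 14.7-fold higher. Angptl4, an inhibitor of lipoprotein lipase, was at 3.41 and 27.3 FPKM. The enzymes of fatty acid oxidation in the list stayed within 2-fold, such as Hadhb (123 and 112 FPKM), Ech1 (115 and 182 FPKM) and Cpt1a (15.2 and 15.9 FPKM).

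Nr3c1, the glucocorticoid receptor, rested on the most reads of the 10 genes, 1621 in spleen and 2294 in lung. It was at 25.6 FPKM in spleen (24.3 to 26.8) and 31.9 FPKM in lung (30.6 to 33.2), a ratio of 1.246 with an interval of 1.17 to 1.33. Of 16 genes known to be induced by glucocorticoids, 14 reached 1 FPKM, with 4 over 2-fold higher and 0 lower in lung and a median log2 ratio of 0.57, where all genes gave 17.8% and 15.5%. The metallothionein genes were foremost, with Mt1 at 17.9 FPKM in spleen and 378 FPKM in lung, or 21.1-fold higher, and Mt2 listed at 0 in spleen and at 16.1 FPKM in lung. The kinase gene Sgk1 was at 37.8 and 175 FPKM, or 4.62-fold higher, and Errfi1, an inhibitor of EGF receptors, was at 4.08 and 8.86 FPKM, or 2.17-fold higher. The targets that are most used as measures of the receptor differed little, with Fkbp5 at 21.9 and 23.7 FPKM and Tsc22d3 at 486 and 471 FPKM. The phosphatase gene Dusp1 (774 and 1132 FPKM) and the inhibitor gene Nfkbia (581 and 871 FPKM), the highest of the list, stayed within 2-fold. Metallothioneins also respond to zinc, Sgk1 to many growth signals, and Dusp1 and Nfkbia to activation.

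Among 9 genes that handle glucocorticoids or fold their receptor, 8 reached 1 FPKM. Of the 8, 0 were over 2-fold higher and 2 were lower in lung, beside 17.8% and 15.5% of all genes. Hsd11b1, which makes active glucocorticoid from its inactive form, was at 99.3 FPKM in spleen and 118 FPKM in lung. H6pd, which supplies Hsd11b1 with NADPH, was at 2.83 and 0.749 FPKM, or 3.78-fold lower. The mineralocorticoid receptor gene Nr3c2 was at 2.46 and 0.416 FPKM, or 5.92-fold lower. The chaperone genes Hsp90ab1 (647 and 734 FPKM) and Hsp90aa1 (123 and 130 FPKM) were nearly equal.

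In order of level, the spleen library ran from Nr1h2 and Nr3c1 through Rara, Rarg and Rxrb to Dhrs3, Nr1h3, Rxra, Ppard and Vdr. The intervals of Rara, Rarg and Rxrb overlapped, as did those of Dhrs3 and Nr1h3, of Rxra and Ppard, and of Ppard and Vdr. In the lung library the order ran from Dhrs3, Nr1h2 and Nr3c1 through Rxrb, Nr1h3, Rara and Rarg to Rxra, Vdr and Ppard. There the intervals of Rxrb and Nr1h3, of Rara and Rarg, and of Rxra and Vdr overlapped.

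**Figure D3:**
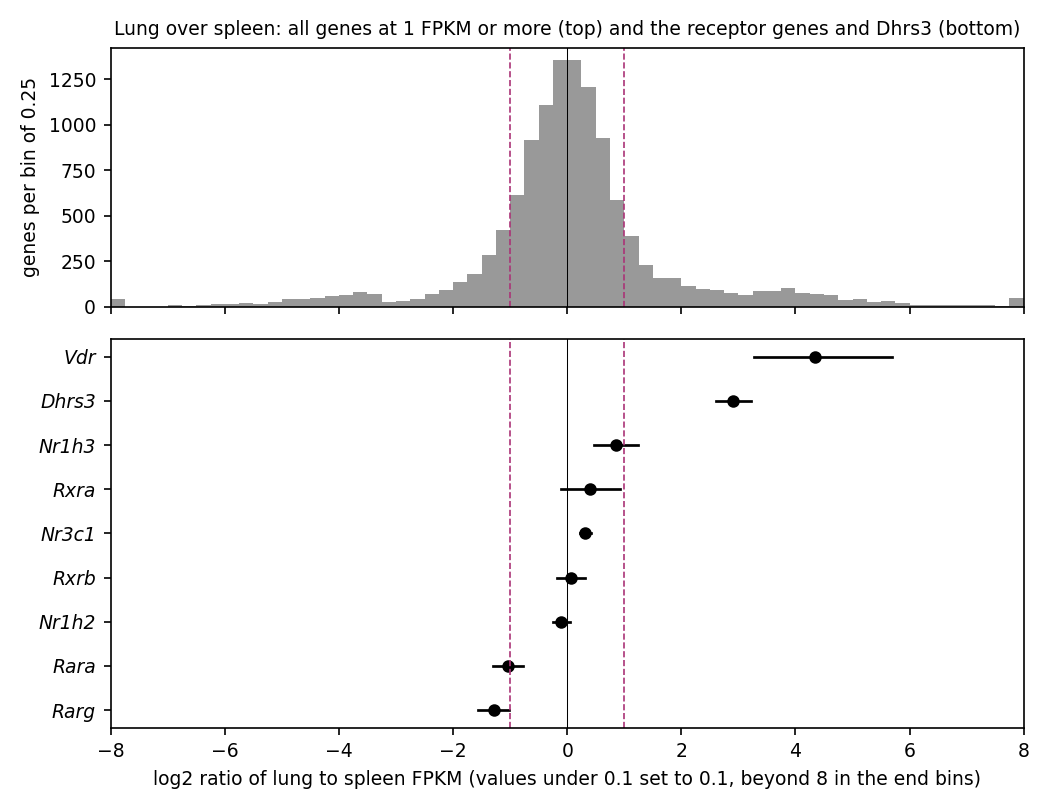
Log2 ratio of lung to spleen FPKM for the 12094 genes at 1 FPKM or more (top, genes per bin) and for the 9 of the 10 genes that reached it (bottom, bars for 95% counting intervals), with dashed lines at 2-fold. Vdr and Dhrs3 lie above the upper line, at 4.34 and 2.91, and Rara and Rarg below the lower line, at -1.04 and -1.29.

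The 10 genes were set beside the 40 other nuclear receptor genes of the mouse. Of these, 16 reached 1 FPKM and 13 were listed at 0 in both libraries. Of those 16, 10 genes were higher and 3 genes lower in lung by over 2-fold, beside 17.8% and 15.5% of all genes. The median log2 ratio of the 16 was 1.47. Besides Pparg, the higher genes included Rora, a transcription factor of tissue lymphocytes, which was at 5.93 and 26.5 FPKM, or 4.48-fold higher. Nr1d1, a repressor of the circadian clock, was at 1.396 and 5.08 FPKM, or 3.64-fold higher, and Hnf4g, a gene of digestive epithelia, was listed at 0 in spleen and at 1.05 FPKM in lung. The highest was Nr4a1, a receptor gene induced by T cell receptor signals, at 96.2 and 213 FPKM. Lower in lung were Nr3c2, Thra, a thyroid hormone receptor gene (3.83 and 0.959 FPKM, or 3.998-fold lower), and Esrra, a regulator of mitochondrial genes. Esrra was at 5.17 FPKM in spleen and at 0.0418 FPKM in lung, about 1 read, which is 124-fold lower with an interval of 21.8 to 4932.

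Nuclear receptors act through coregulators, and 15 of 16 coregulator genes reached 1 FPKM. The median log2 ratio of these 15 was -0.32. By over 2-fold, 0 were higher and 3 were lower in lung, beside 17.8% and 15.5% of all genes. The 3 lower genes were the coactivators Ncoa1 (6.05 and 2.51 FPKM, 2.42-fold lower), Ep300 (13.0 and 5.76 FPKM, 2.25-fold lower) and Ppargc1b (2.52 and 1.26 FPKM, 2.004-fold lower). The corepressors Nrip1 (67.0 and 53.8 FPKM) and Ncor1 (50.7 and 59.4 FPKM) and the ferritin receptor gene Ncoa4 (48.0 and 64.0 FPKM) were among the most abundant and stayed within 2-fold.

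**Figure D4:**
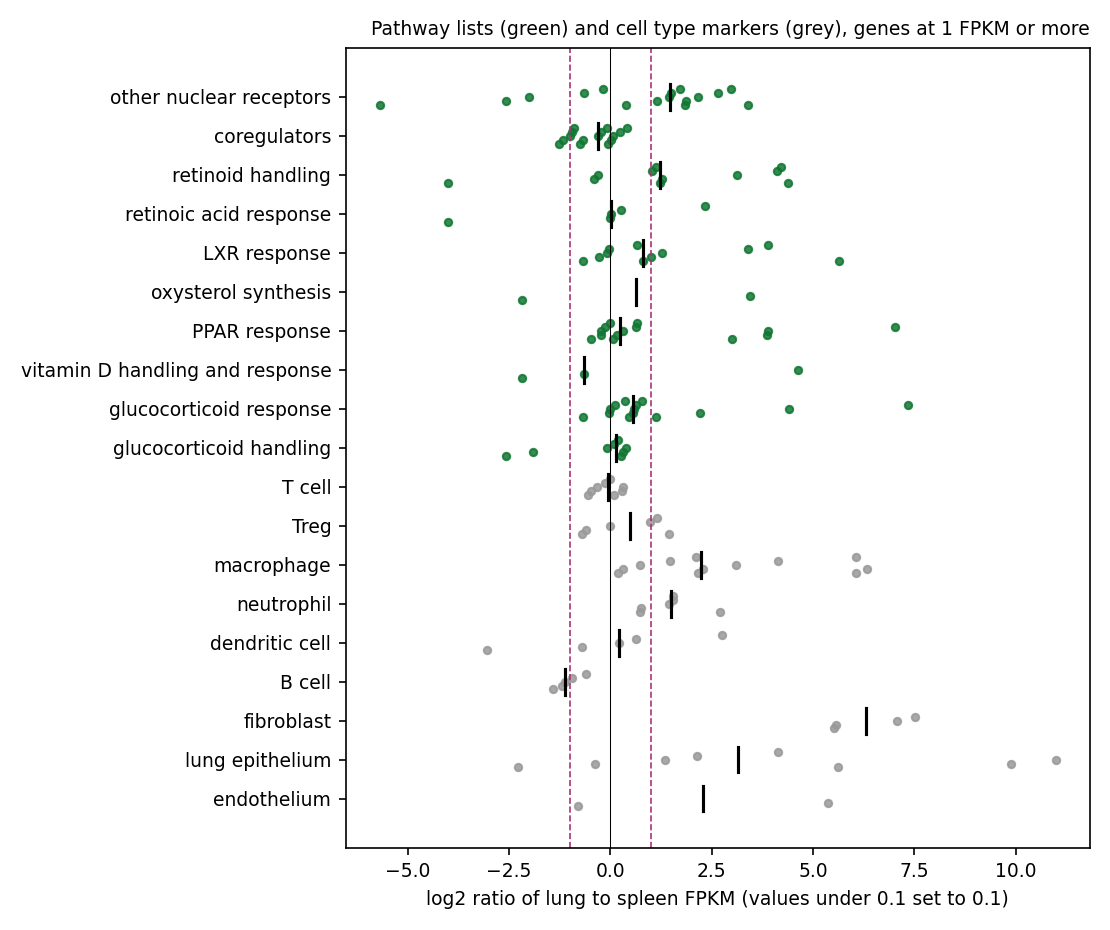
Log2 ratio of lung to spleen FPKM of each gene at 1 FPKM or more in the 10 pathway lists (green) and 9 lists of cell type markers (grey), with a bar at each median and dashed lines at 2-fold. The medians of the pathway lists ran from -0.64 for vitamin D genes to 1.47 for the other nuclear receptors. Those of the marker lists ran from -1.11 for B cells to 6.32 for fibroblasts, with macrophages at 2.23.

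RNA of other cells differed between the libraries beside these results, and its part in them was not tested. All 8 T cell markers were within 2-fold (median log2 ratio -0.07), and of the 6 Treg markers Foxp3 (18.7 and 41.8 FPKM) and Ctla4 were over 2-fold higher in lung, whereas after rescaling to TPM 1 Treg marker was over 2-fold higher and 2 were over 2-fold lower. Of the 12 macrophage markers, all at 1 FPKM or more, 9 were over 2-fold higher and Csf1r, Mrc1 and Adgre1 were within 2-fold, and their sum was 677 FPKM in spleen and 27282 FPKM in lung, mostly Lyz2. Siglecf, a marker of alveolar macrophages, was at 0.0438 FPKM in spleen and 8.06 FPKM in lung. Many of the genes with the highest ratios above, among them Pparg, Fabp4, Lpl, Apoe and Cd36, are known in lung macrophages as well. Sums for the neutrophil markers were 429 and 1214 FPKM, for dendritic cells 319 and 377 FPKM and for B cells 245 and 126 FPKM. Those for fibroblasts were 0.290 and 47.2 FPKM, for lung epithelium 155 and 3486 FPKM and for endothelium 54.99 and 38.8 FPKM. The dendritic cell sum was mostly Ccr7 (311 and 361 FPKM), and the endothelium sum was mostly Pecam1 (54.8 and 31.7 FPKM). Cldn5 of endothelium differed in the other direction from that sum, at 0.160 and 6.54 FPKM. Most of the epithelium sum was Hopx in spleen (142 FPKM) and Scgb1a1 in lung (3021 FPKM). By over 2-fold, 4 of 6 neutrophil, 4 of 4 fibroblast and 6 of 8 epithelial markers at 1 FPKM or more were higher in lung, as was 1 of 5 for dendritic cells and 1 of 2 for endothelium. By the same measure 3 of 5 B cell markers, 1 of 5 dendritic cell markers and 1 of 8 epithelial markers, Epcam (8.75 and 1.79 FPKM), were lower. These marker counts, without rescaling, stand beside 17.8% higher and 15.5% lower among all genes at 1 FPKM or more. Listed at 0 in spleen were Col3a1, Lum and Pdgfra of fibroblasts, Sftpc and Sftpb of alveolar epithelium, and Cdh5 and Tek of endothelium, Clec9a of dendritic cells and Kdr of endothelium were listed at 0 in lung, and Emcn of endothelium in both. In these bulk libraries fewer cells of a type and less RNA per cell cannot be told apart, for RAR and Dhrs3 as for the other genes.

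Whether the FPKM of the 2 libraries share a scale is not given in the sources used here. Rescaling both to the same sum (TPM) moved the median of all genes by -0.43 in log2, put 13.1% of genes over 2-fold higher and 25.9% lower in lung, and turned the direction of Rxra, Rxrb and Nr3c1, and of the RXR and LXR sums, to lower in lung, while Vdr, Dhrs3, Rara and Rarg kept both direction and call. On that scale 4 genes of retinoid handling were over 2-fold higher in place of 8, 7 coregulators were lower in place of 3, and the medians of the retinoic acid, PPAR and glucocorticoid handling lists turned negative.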

How the data were processed

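GFP+CD4+ cells of FDG mice gave 1 library from spleen and 1 from lung, grouped by their labels. Full-length cDNA made with a SMART-Seq HT kit was sequenced in 75-base single-end mode. The authors deposited FPKM from Cuffdiff 2.2.1 after alignment to mm10 by TopHat2 2.1.1, and the submitters' processing notes also name Bowtie2 2.2.8 with SAMtools 0.1.18. The annotation, filters and scaling are not given in the sources used here. TPM and reads were derived here from these FPKM.

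Reads were estimated from effective lengths of the GENCODE M21 (GRCm38) transcripts tied to RefSeq, found for 23677 symbols (97.3%), with fragments of mean 200, SD 80 and at least 71 bases, the last chosen among settings as giving the most nearly whole reads in short genes. At an effective 1 kb, 1 read was worth 0.0965 FPKM in spleen and 0.0850 FPKM in lung, a ratio of 0.881, which was also the most frequent ratio among low genes (121 genes). Of values of 1 to 10 reads in genes with 1 transcript length, 72.9% in spleen and 75.0% in lung lay within 0.1 of a whole number. Estimated reads summed to 9865290 in spleen and 12884800 in lung. List genes with several lengths were given the median length.

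Because there is 1 library per group, no test was run. Floors, pseudocounts, scalings, filters and folds were varied. The genes and lists were chosen with earlier results of these data known. Named were the 10 genes and, of each list, up to 5 genes per direction with the largest ratio over 2-fold, the 2 most abundant, and genes on which a statement turns, except for some that are not reported here. All 217 list symbols were matched. Intervals came from scipy 1.17.1, with tables handled in pandas 2.3.3 under Python 3.11.15.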

Additional observations from a re-analysis of the deposited data

How the results depend on the processing

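Under 14 alternative settings, the counts of genes over 2-fold and the median gave 35 values within 1.5 times the count or within counting error and 5 outside. The count lower in lung was 1 with a pseudocount of 1 FPKM, because Rara came to -0.94 in log2, and 0 with a threshold of 4-fold. The count higher in lung was 1 with a minimum of 5 FPKM, which leaves Vdr out, beside 13.0% of all genes. The median log2 ratio was -0.24 after rescaling to TPM and -0.19 after rescaling to TPM without the marker genes of other cells, a setting added after the values had been seen. Vdr was at 1.72 in log2 with a floor of 1 FPKM and 1.89 with a pseudocount of 1 FPKM. Dhrs3 ranged from 2.48 to 2.91 and Rarg from -1.72 to -1.16. For single genes 90 values stayed within counting error and 16 moved further, and for lists 472 counts stayed within 1.5 times and 60 did not. No paired analysis was possible because each tissue has 1 library, and for the same reason no library could be left out. Depth limits Vdr in spleen, about 7 reads, and Ppard.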
